A study of Mus musculus with 12 samples.

Results

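The 10 genes described here encode the enzymes of the pentose phosphate pathway and 2 further cytosolic enzymes that make NADPH: G6pdx, Pgls and Pgd of the oxidative branch, Taldo1, Tkt, Rpia and Rpe of the non-oxidative branch, H6pd of the endoplasmic reticulum, and Idh1 and Me1. They were taken by symbol from the 23921 genes whose values could be read, and all 10 passed the filter on low values. RNA of whole mouse cochleae on a mixed 129S2/SvPas:C57BL/6 background was sequenced in 12 libraries, 3 in each of 4 groups: Dusp1-/- (KO) at 5 months (E7, F18 and F19), wild type (WT) at 5 months (E1, E3 and E4), KO at 8 months (F5, F6 and F27) and WT at 8 months (F1, F10 and F12). Letters and numbers are the library codes on the labels, and nothing in the sources used here says how many animals an extract holds, so p-values measure the spread between libraries, which may be technical in part.

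The pentose phosphate pathway takes glucose 6-phosphate away from glycolysis. Its oxidative branch makes NADPH, the reducing power for glutathione and thioredoxin recycling, for fatty acid and sterol synthesis and for the oxidative burst of phagocytes, and its non-oxidative branch exchanges the sugar carbons with glycolysis and supplies ribose 5-phosphate for nucleotides. Isocitrate dehydrogenase and malic enzyme of the cytosol make NADPH from other substrates. Dusp1 encodes a nuclear phosphatase that switches off p38 and JNK kinases, and the study asked how its loss changes redox balance and inflammation in the aging ear.

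The libraries are comparable in total signal but not in their levels of cell type markers. The values are FPKM, fragment counts scaled to transcript length and to library size. They sum to 500708 to 583067 per library, the depth in reads is unknown, and no pair of libraries was identical. Markers of the labelled tissue were present throughout, with summed levels of 8 hair cell genes of 98.6 to 112 FPKM in KO and 99.3 to 134 in WT at 5 months, and all 8 above 0 in every library. At 5 months the sums of the spiral ganglion neuron list were lower in KO without overlap (1079 to 1267 FPKM against 1388 to 1451 in WT). So were those of the stria vascularis list (372 to 410 against 425 to 437 FPKM). The sums of the supporting cell, otic fibrocyte and Schwann cell lists overlapped between genotypes. Dusp1 itself was higher in the KO libraries, at 61.9 to 81.5 FPKM against 29.5 to 60.8 in WT at 5 months and 55.6 to 73.7 against 38.3 to 43.0 at 8 months. A value summed over the gene does not tell an intact from a disrupted transcript, and genotypes are those on the labels. Xist exceeded the Y-linked Ddx3y in 4 libraries (E4, F6, F27 and F1), 1 of them WT at 5 months and none KO at 5 months. The neutrophil list was highest in E7 and F5. An adipocyte list, chosen after its genes had been seen to stand out, was highest in F18, where Ucp1, the uncoupling protein of brown fat, reached 517 FPKM. Both lists are set beside the members below. In a bulk tissue, fewer cells of a type and less RNA per cell cannot be told apart.

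All 10 genes were expressed in every library, and their levels differed by more than an order of magnitude. Taldo1, transaldolase, was the most abundant, with a mean over the 12 libraries of 155 FPKM (105 to 268), and Tkt, transketolase, followed at 107 FPKM (67.0 to 241). Both shuttle carbon units between sugar phosphates in the non-oxidative branch, and Taldo1 exceeded Tkt in 12 of 12 libraries although their ranges overlapped.

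Next came the oxidative branch. Pgd, the 6-phosphogluconate dehydrogenase that makes the second NADPH, averaged 57.8 FPKM (41.4 to 84.5), Pgls, the lactonase between both dehydrogenases, 52.1 FPKM (34.9 to 68.5), and G6pdx, the X-linked glucose-6-phosphate dehydrogenase that commits glucose to the pathway, 39.8 FPKM (30.7 to 52.2). Me1, cytosolic malic enzyme, averaged 49.5 FPKM (30.6 to 106) with a median of 40.7 FPKM. Its group mean was below that of Pgls in both KO groups (59.2 against 62.0 and 44.4 against 56.5 FPKM). It was above that of Pgls in both WT groups (41.5 against 37.6 and 53.1 against 52.4 FPKM). Single libraries went the other way: F18 in KO (106 against 68.5 FPKM), and in WT E4 (40.6 against 41.1 FPKM), F10 (40.7 against 49.0 FPKM) and F12 (51.7 against 62.0 FPKM). Idh1, cytosolic isocitrate dehydrogenase, averaged 35.9 FPKM (28.1 to 51.6). Neighbours in this order overlapped: Pgd exceeded Pgls in 9 libraries, Pgls exceeded Me1 in 8, Me1 exceeded G6pdx in 8 and G6pdx exceeded Idh1 in 9.

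The single clear step in the order lay below Idh1, whose lowest value was above the highest of Rpe. Rpe, the epimerase that makes xylulose 5-phosphate, averaged 16.2 FPKM (14.2 to 18.3), Rpia, the isomerase that makes ribose 5-phosphate, 12.8 FPKM (9.85 to 20.8), and H6pd, which feeds NADPH to the lumen of the endoplasmic reticulum, 8.86 FPKM (7.55 to 15.3). Rpe exceeded Rpia in 10 libraries and Rpia exceeded H6pd in 11. The spread over libraries was unequal too: the highest value was 1.29 times the lowest for Rpe, 1.70 times for G6pdx, 3.47 times for Me1 and 3.60 times for Tkt. F18 held the highest value of 9 of the 10 genes, and E7 that of Rpia.

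**Figure D1:**
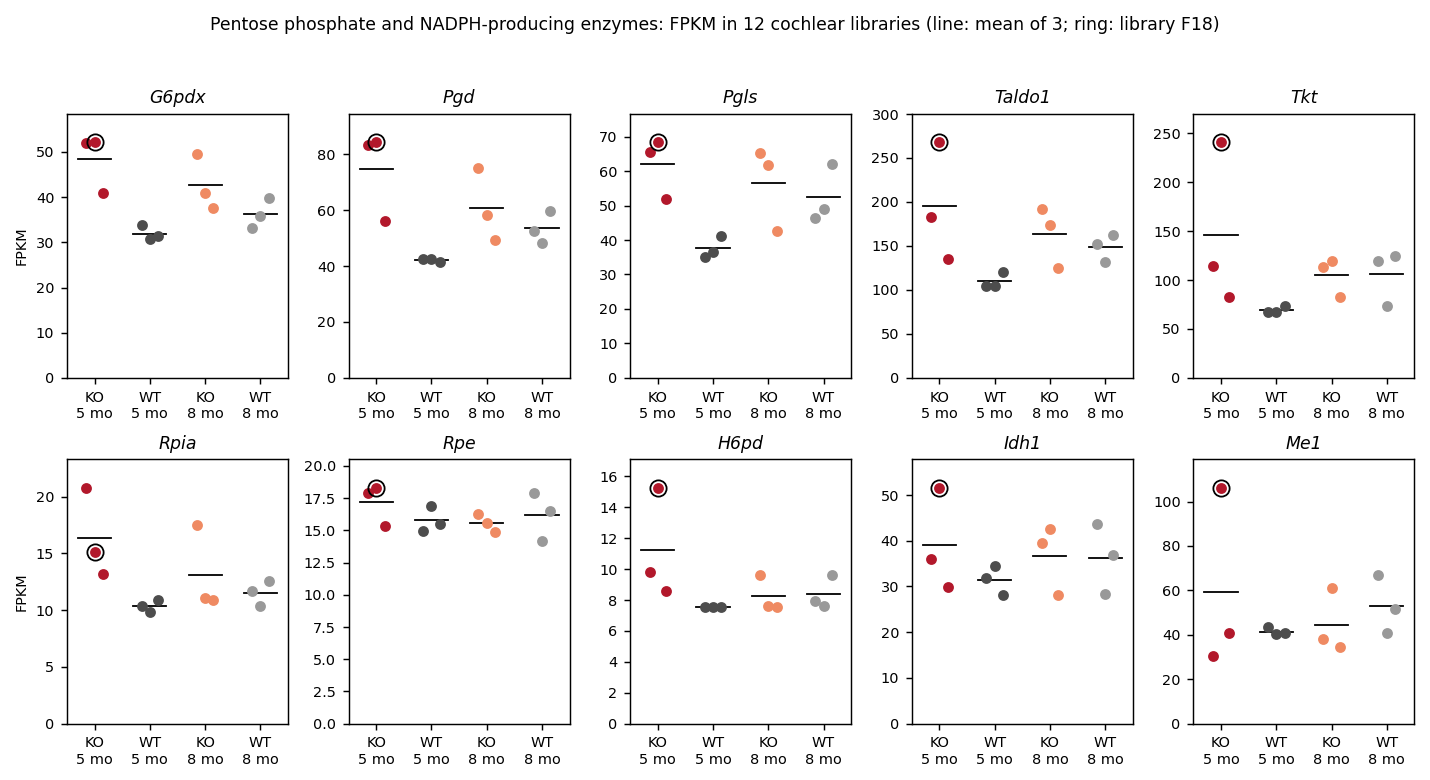
Levels of the 10 genes in FPKM (vertical axes, each starting at 0) in the 3 libraries of each group, with KO left of WT at 5 and at 8 months; points are libraries, lines are group means and a ring marks F18. At 5 months the KO points of G6pdx, Pgd, Pgls, Taldo1, Tkt, Rpia and H6pd all lie above the WT points, and F18 is far above E7 and F19 for Tkt, H6pd and Me1.

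In the annotation used by the authors (mm9) the genes lie on 8 chromosomes, none of them that of Dusp1. G6pdx spans chrX:71654825-71674500 on the minus strand with 13 exons, Pgd chr4:148524094-148540816 (minus, 13 exons) and Pgls chr8:74116083-74120166 (plus, 5 exons). H6pd lies on the same arm as Pgd, at chr4:149353583-149383132 (minus, 5 exons). Each has 1 annotated transcript except H6pd, Idh1 and Me1, which have 2. G6pd2, a copy of G6pdx without introns, had a mean under 0.5 FPKM and did not pass the filter.

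Promoters were searched for the antioxidant response element core TGACNNNGC, the motif bound by NRF2, because NRF2 is known to drive several of these genes in other tissues. RefSeq sequences (GRCm38.p6) from 250 bases before to 50 after each annotated start were used, 13 for the 10 genes. On both strands together, 3 of the 13 windows (23.1%) held a match, against 12.4% of all 32851 windows. The stretches around the 3 matches are shown 5′ to 3′ on the strand of the gene, all of them minus-strand genes, with the match in capitals.
G6pdx, chrX:74428914-74428977: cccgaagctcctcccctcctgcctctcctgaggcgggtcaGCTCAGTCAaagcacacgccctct
Pgd, chr4:149166056-149166119: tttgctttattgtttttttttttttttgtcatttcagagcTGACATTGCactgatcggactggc
Me1, chr9:86695897-86695960: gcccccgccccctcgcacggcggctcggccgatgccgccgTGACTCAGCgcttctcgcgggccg

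The G6pdx match begins 57 bases before the start and lies on the opposite strand, where it reads TGACTGAGC. The Me1 match begins 6 bases before the start. The Pgd match begins at base 4 of the transcript, so it lies inside the transcribed part and not before it. G6pdx had 1 annotated start. The Pgd and Me1 matches are each at 1 of 2 annotated starts, and the window at the other start held no match. Which start is used in the cochlea was not tested. The other members had no match in these windows. A match is a run of letters only, and binding was not measured.

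At 5 months 7 of the 10 genes (G6pdx, Pgd, Pgls, Taldo1, Tkt, Rpia and H6pd) had higher values in all KO than in all WT libraries, by 1.41 to 1.90 fold in the fit, and none of the 10 passed the adjusted test. For Rpe, Idh1 and Me1 the libraries of the genotypes overlapped. By limma over 16263 genes with p adjusted by Benjamini and Hochberg, 0 of the 10 members had an adjusted p under 0.05, and 0.0676% of all genes had one. An unadjusted p under 0.05 with a higher level in KO was reached by 7 of the 10, where 8.25% of all genes reached it. The same 7 genes had no overlap between genotypes, all 3 KO values being the higher ones, as for 11.3% of all genes. The median change of the 10 genes was 0.60 on the log2 scale, beside -0.03 for all genes.

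G6pdx had 52.0, 52.2 and 40.8 FPKM in E7, F18 and F19 of KO, against 33.7, 30.7 and 31.4 FPKM in E1, E3 and E4 of WT at 5 months. E7 and F18 were high and nearly equal, and F19, the lowest KO library, was still above the highest WT library. The change was 0.58 ± 0.12 on the log2(FPKM + 0.5) scale (SE of the fit, n = 3 per group), with an unadjusted p of 0.000764 and an adjusted p of 0.145 by limma. The exact two-sided permutation p was 0.1, the smallest that 3 against 3 can give.

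Pgd, the next dehydrogenase of the branch, had 83.3, 84.5 and 56.3 FPKM in KO against 42.5, 42.6 and 41.4 FPKM in WT. The WT libraries differed by little and each KO library was above them, again with F19 lowest. The change was 0.79 ± 0.18 (adjusted p = 0.145, limma). Pgls had 65.6, 68.5 and 52.0 FPKM in KO against 34.9, 36.6 and 41.1 FPKM in WT, a change of 0.71 ± 0.17 (adjusted p = 0.159, limma). The 3 enzymes of the oxidative branch thus showed the same order of KO libraries, F18, E7 and F19, and no overlap with WT.

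In the non-oxidative branch the KO libraries were further apart. Taldo1 had 183, 268 and 135 FPKM in E7, F18 and F19 against 105, 105 and 120 FPKM in WT, and Tkt had 114, 241 and 82.9 FPKM against 67.0, 67.4 and 73.4 FPKM. F18 stood alone at the top for both genes. The changes were 0.77 ± 0.23 for Taldo1 (adjusted p = 0.188) and 0.92 ± 0.34 for Tkt (adjusted p = 0.220, both limma), and without F18 they were 0.52 and 0.49.

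Rpia, the ribose 5-phosphate isomerase, had another order: 20.8 FPKM in E7, 15.1 in F18 and 13.2 in F19, against 10.4, 9.85 and 10.9 FPKM in WT. Here E7 was the high library. The change was 0.61 ± 0.19 (adjusted p = 0.198, limma), and 0.43 without E7. Rpe, the epimerase beside it, had 17.9, 18.3 and 15.4 FPKM in KO against 14.95, 16.9 and 15.5 FPKM in WT, so the groups overlapped, and its change was 0.12 with a 95% interval of -0.10 to 0.33.

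H6pd, the enzyme of the endoplasmic reticulum, had 9.79, 15.3 and 8.60 FPKM in KO against 7.55, 7.58 and 7.58 FPKM in WT. The WT libraries were almost equal, all KO libraries were above them, and F18 made up much of the difference of 0.50 ± 0.18 (adjusted p = 0.220, limma), which was 0.26 without it. For Idh1 and Me1 the groups overlapped. Idh1 had 36.0, 51.6 and 30.0 FPKM in KO against 31.9, 34.6 and 28.1 FPKM in WT, with a change of 0.28 (95% interval -0.22 to 0.78).

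Me1 was the gene on which the KO libraries differed most, with 30.6 FPKM in E7, 106 in F18 and 40.7 in F19, against 43.6, 40.2 and 40.6 FPKM in WT. E7 held the lowest value of the 12 libraries and F18 the highest. The change was 0.30 with a 95% interval of -0.59 to 1.18, and it was -0.23 without F18 and 0.66 without E7.

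**Figure D2:**
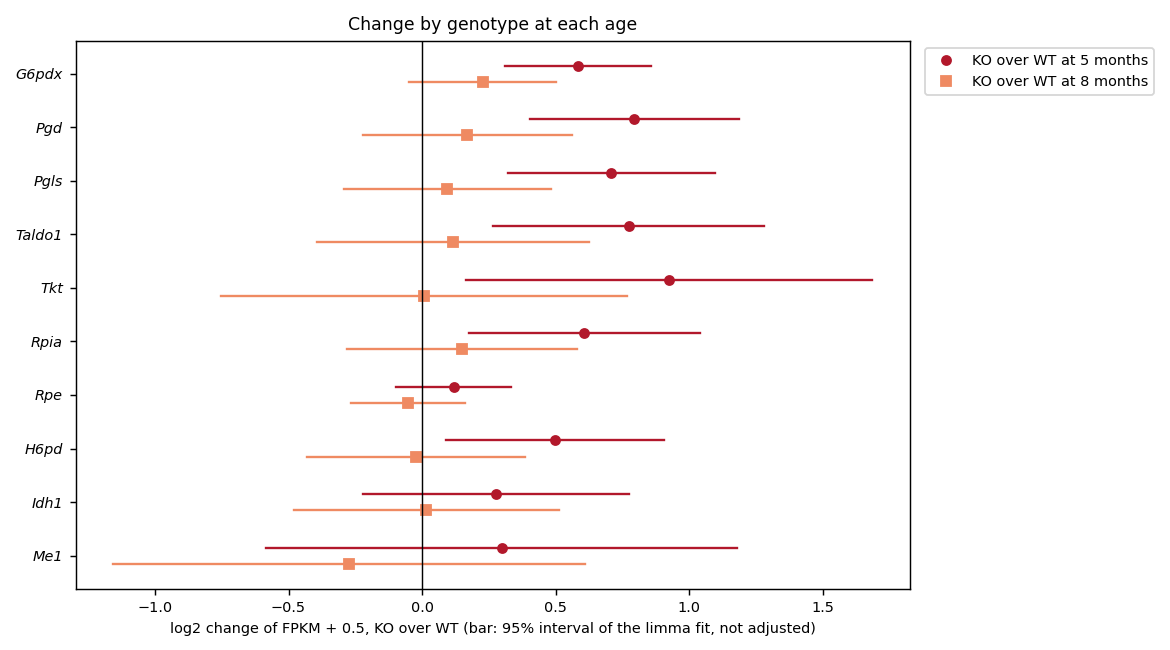
Change of each gene in KO over WT on the log2(FPKM + 0.5) scale (horizontal axis) at 5 months (circles) and at 8 months (squares), with bars for the unadjusted 95% interval of the limma fit. At 5 months 7 intervals lie above 0, from H6pd at 0.50 to Tkt at 0.92, and at 8 months all 10 include 0.

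At 8 months the libraries of the genotypes overlapped for every member, with wide intervals for several. None of the 10 passed the adjusted test by limma (0.0123% of all genes did), none had an unadjusted p under 0.05 (5.18% of all genes did), and none had all KO values above all WT values, as 4.11% of all genes had. The median change was 0.06, beside -0.00 for all genes. G6pdx came nearest, with 49.6, 40.9 and 37.6 FPKM in F5, F6 and F27 of KO against 33.2, 35.8 and 39.9 FPKM in F1, F10 and F12 of WT. Here 2 KO libraries were above all WT libraries and F27 lay among them. The change was 0.23 (95% interval -0.05 to 0.50, exact permutation p = 0.2, two-sided), and 0.31 without F27.

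The other enzymes of the oxidative branch overlapped more. Pgd had 75.1, 58.4 and 49.3 FPKM in KO against 52.7, 48.2 and 59.6 FPKM in WT, a change of 0.17 (95% interval -0.22 to 0.56). Pgls had 65.1, 61.8 and 42.5 FPKM in KO against 46.3, 49.0 and 62.0 FPKM in WT, a change of 0.09 (95% interval -0.29 to 0.48). F5 was the highest KO library and F12 the highest WT library for G6pdx, Pgd and Pgls alike. When F5 alone was left out Pgls turned to -0.02, while Pgd was at 0.0096 and G6pdx at 0.11.

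Tkt had 113, 119 and 83.0 FPKM in KO against 120, 73.9 and 125 FPKM in WT at 8 months, which is the same range, with a change of 0.01 (95% interval -0.75 to 0.77). Taldo1 had 192, 174 and 125 FPKM in KO against 153, 132 and 163 FPKM in WT, and Rpia had 17.5, 11.04 and 10.9 FPKM against 11.7, 10.4 and 12.6 FPKM. F5 was the only KO library above the WT libraries for Rpia. Me1 had 37.9, 60.9 and 34.3 FPKM in KO against 66.9, 40.7 and 51.7 FPKM in WT, and its change of -0.27 had a 95% interval of -1.16 to 0.61. For Rpe, H6pd and Idh1 the changes were -0.05, -0.02 and 0.02.

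Averaged over both ages, 0 of 10 members passed the adjusted test (0.0799% of all genes did), and 5 reached an unadjusted p under 0.05 with a higher level in KO, as 7.76% of all genes did: G6pdx (0.40 ± 0.09, adjusted p = 0.117), Pgd (0.48 ± 0.12, adjusted p = 0.155), Pgls (0.40 ± 0.12, adjusted p = 0.202), Taldo1 (0.44 ± 0.16, adjusted p = 0.237) and Rpia (0.38 ± 0.14, adjusted p = 0.235), all by limma. With genotype labels permuted within each age, the exact two-sided p was 0.01 for G6pdx, 0.025 for Pgd, 0.045 for Rpia and 0.055 for Pgls and Taldo1, where 0.005 is the smallest possible and the values are not adjusted for the 10 genes. No member had all 6 KO values above all 6 WT values, which 0.289% of all genes had. G6pdx missed by 1 library of each genotype, KO F27 at 37.6 and WT F12 at 39.9 FPKM.

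The genotype difference was smaller at 8 than at 5 months for all 10 members, with a median of -0.55 for the difference of changes beside 0.01 for all genes. None passed the adjusted test by limma (0.00615% of all genes did). Pgd (-0.62, 95% interval -1.18 to -0.07) and Pgls (-0.61, 95% interval -1.16 to -0.07) had an unadjusted p under 0.05, with lower values, as 1.66% of all genes had, and both an adjusted p of 0.877. For G6pdx the difference was -0.36 (95% interval -0.74 to 0.03). The fit shares its WT and KO libraries with the comparisons within each age and adds no further samples. No member had an unadjusted p under 0.05 without E7 (1.26% of all genes had one with a lower value), F18 (2.55%), F27 (1.17%) or F12 (0.996%), and 6 members had one without F19 (2.07%) or without F5 (6.2%).

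In WT, all 10 members were higher at 8 than at 5 months, by a median of 0.25 on the log2 scale beside 0.02 for all genes, and for 5 of them (Pgd, Pgls, Taldo1, Tkt and H6pd) every 8-month value was above every 5-month value, as for 10.4% of all genes. Limma called 0 members (0.0123% of all genes), and Pgls alone had an unadjusted p under 0.05 with a higher level (4.28% of all genes), at 0.47 ± 0.17 (adjusted p = 0.630). No member had such a p without E1 (2.86% of all genes did), E3 (2.78%) or F12 (2.71%). There were 3 members with one without F18 (5.14%) or without F19 (3.83%), KO libraries that enter here only through the shared spread. With the 2 WT groups alone 4 members had one (6.9%), and with array weights 5 did (8.23%). With the neutrophil level as a covariate 0 members had one (6.17%), and with the neutrophil and adipocyte levels together 0 did (7.4%). All WT libraries of 5 months carry the code letter E and all those of 8 months the letter F, so age and letter cannot be told apart within WT. With the letter in the fit, where the KO library E7 alone separates it from age, Me1 was at -0.77 and H6pd at -0.085.

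In KO, all 10 members were lower at 8 than at 5 months, by a median of -0.23 beside 0.01 for all genes. Limma called 0 members and 0 genes of all tested (percent called 0), and 0 members had an unadjusted p under 0.05, where 12.6% of all genes had one. No member had all 8-month KO values below all 5-month KO values, as 4.58% of all genes had. Without F5, 4 members had an unadjusted p under 0.05 with a lower level at 8 months (8.89% of all genes did), and without F19 3 had one (2.36%). Without F18 alone, Taldo1, Tkt, Idh1 and Me1 were higher at 8 months, at 0.034, 0.093, 0.14 and 0.28. Without E7, F5 and F18 the same genes were at 0.12, 0.26, 0.20 and 0.17.

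The members did not vary as a block across the libraries. Relative to G6pdx, Pgd kept within 1.26 to 1.62 times its level and Pgls within 1.04 to 1.55 times, over all 12 libraries. Tkt ranged from 1.99 times G6pdx in E1 to 4.62 times in F18, with 3.61 in F1, 3.12 in F12 and 2.91 in F6. Me1 ranged from 0.59 times G6pdx in E7 and 0.76 in F5 to 2.02 in F1 and 2.03 in F18. The ratio of Rpia to Rpe was above 1 in E7 (1.16) and F5 (1.07) only and lowest in E3 (0.58).

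Marker levels of other cell types are given beside these values. The 4 libraries with the highest Tkt and the 4 with the highest Me1 were the same, F18, F6, F1 and F12, and these were also the 4 with the highest sums of the 11 adipocyte genes, 5021, 1930, 1575 and 1395 FPKM. The 5 libraries with the highest Idh1, F18, F5, F6, F1 and F12, were the 5 highest by this adipocyte sum. For Tkt, Me1, Pgd, Pgls and Taldo1 4 of their 5 highest libraries were among the 5 highest by that sum. For G6pdx, Rpia, Rpe and H6pd 3 of 5 were. With the 4 highest in place of the 5 highest, Idh1 shared 3 libraries with that sum. G6pdx, Pgd, Pgls, Taldo1, Rpe and H6pd then shared 2, and Rpia 1. That sum ranged over 82.4 to 5021 FPKM in KO and 158 to 389 in WT at 5 months, and over 235 to 1930 in KO and 188 to 1575 in WT at 8 months. All 11 genes were above 0 in every library, and Lep, the gene of the fat hormone leptin, stayed under 2.5 FPKM in all. F5, with the next highest adipocyte sum (1318 FPKM), had a low Me1 of 37.9 FPKM. F19 had the lowest adipocyte sum of all 12 libraries, and its Tkt was 82.9 FPKM against 73.4 in the highest WT library of its age. The part of these cells in the result was not tested. With the adipocyte level in the fit, an alternative added after inspecting the values, 7 members had an unadjusted p under 0.05 with a higher level at 5 months, as 7.32% of all genes had, and the changes were 0.52 for G6pdx, 0.64 for Tkt and 0.04 for Me1.

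The neutrophil list, 16 of 18 genes in the table, had summed levels of 4197 to 23118 FPKM in KO against 93.3 to 701 FPKM in WT at 5 months, and of 915 to 16965 FPKM in KO against 714 to 4679 FPKM in WT at 8 months. Its 16 genes were above 0 in every library, and at 5 months all 16 had an unadjusted p under 0.05 with a higher level in KO and none an adjusted one. E7 (23118 FPKM) and F5 (16965 FPKM) led, and Rpia was highest in these libraries, while Me1 was at its lowest in E7. F18 had the lowest neutrophil sum of its group, 4197 FPKM, and the highest G6pdx, Pgd and Pgls. For each of these 3 genes E7 ranked 2 and F5 ranked 3 of the 12 libraries. F19 ranked 3 by neutrophil sum and 5, 6 and 6 for G6pdx, Pgd and Pgls. F12, with the highest neutrophil sum in WT (4679 FPKM), had the highest WT value of all 3 genes. All 10 proliferation genes, all 10 B cell genes and 7 of 9 red cell genes tested also had an unadjusted p under 0.05 with a higher level in KO at 5 months, and none an adjusted one, and the proliferation sums were 32.7 to 136 FPKM in KO against 7.97 to 12.6 FPKM in WT. With the neutrophil level as a covariate the 5-month changes were 0.32 for G6pdx, 0.43 for Pgd, 0.50 for Pgls, 0.07 for Rpia and 0.91 for Me1, and 0 members had an unadjusted p under 0.05. In that fit 3.17% of all genes had one with a higher level, against 8.25% without the covariate. With the neutrophil and adipocyte levels together, a fit added after the values were seen, 4 members had one with a higher level, as 4.96% of all genes had. All 5-month KO libraries had higher neutrophil sums than all WT libraries of that age, so the neutrophil covariate and genotype are hard to separate there. The part of neutrophils in the result was not tested.

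**Figure D3:**
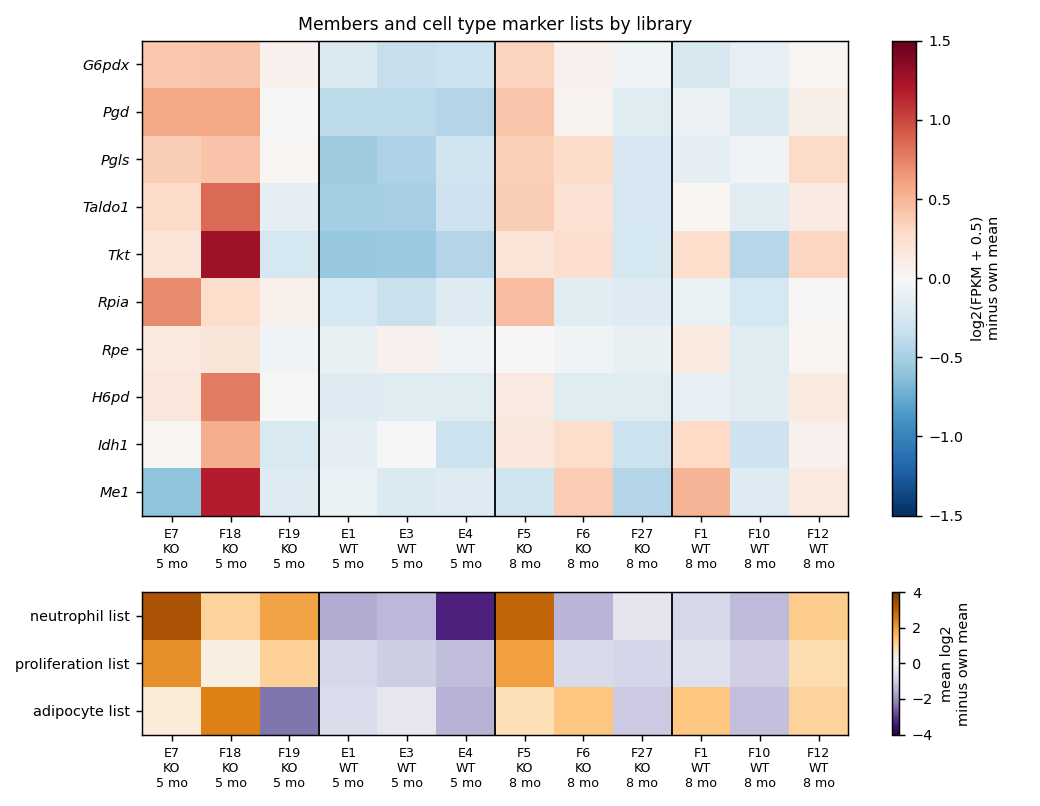
Upper panel: log2(FPKM + 0.5) of each member minus its own mean over the 12 libraries (colour), by library, with KO left of WT at each age; lower panel: the mean log2 level of the neutrophil, proliferation and adipocyte lists, likewise minus its own mean. F18 is the darkest column for Tkt and Me1 and has the highest adipocyte level, while E7 and F5 have the highest neutrophil level, high Rpia and low Me1.

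At 5 months 7 members had an unadjusted p under 0.05 with a higher level without E7 (3.94% of all genes did), 5 without F18 (9.92%) and 7 without F19 (8.38%). When E7, F5 and F18 were left out, a choice made after seeing the data that leaves F19 as the only KO library at 5 months, with its spread taken from the other groups, 3 members had such a p (5.51% of all genes did). The changes were then 0.35 for G6pdx, 0.41 for Pgd, 0.47 for Pgls, 0.30 for Taldo1, 0.26 for Tkt, 0.33 for Rpia and 0.17 for H6pd, with adjusted p of 0.484 or more by limma. With the code letter (E or F) as a covariate the 5-month comparison rests on E7 alone against WT. E7 is the only KO library of that age with the letter of the WT libraries. Me1, lowest in E7, was then at -0.43.

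**Figure D4:**
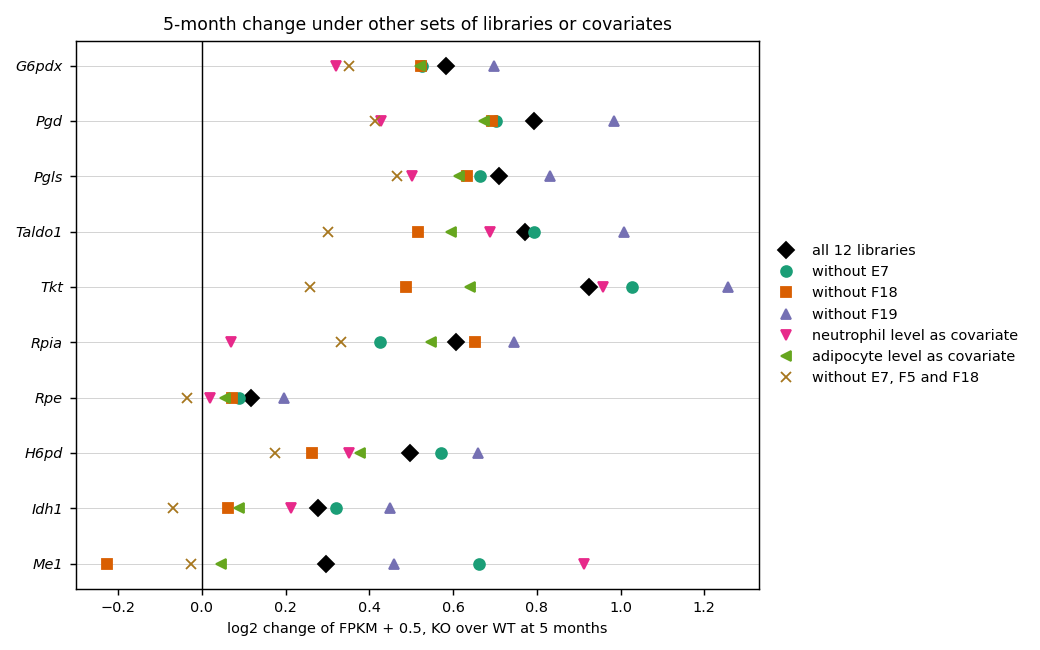
The 5-month change of each gene in KO over WT (horizontal axis, log2 of FPKM + 0.5) with all 12 libraries (black diamonds), without each KO library of that age, with a marker level as covariate, and without E7, F5 and F18. G6pdx, Pgd and Pgls stay between 0.32 and 0.98 in all of these, whereas Me1 runs from -0.23 without F18 to 0.91 with the neutrophil level as covariate.

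The other genes around the pathway were described from 5 lists, whose difference from the 10 members was not tested. Of 8 other pentose phosphate and ribose genes tested, limma called 0 in any comparison, and at 5 months 0 had an unadjusted p under 0.05 with a higher level and 1 with a lower one (9.93% of all genes had a lower one), with a median change of -0.02. The smallest p averaged over both ages belonged to Prpsap2, a regulatory subunit of ribose-phosphate pyrophosphokinase (-0.13 ± 0.05), Rbks, ribokinase (0.19 ± 0.08), and Shpk, sedoheptulokinase (-0.10 ± 0.05). Of the 11 listed, G6pd2, Tktl1 and Tktl2 did not pass the filter on low values.

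Of 8 other NADPH-producing enzymes, mostly of mitochondria and folate metabolism, 0 were called. At 5 months 1, Me3, had an unadjusted p under 0.05, with a lower level in KO (9.93% of all genes did). Me3, mitochondrial malic enzyme, had 5.08, 6.65 and 5.44 FPKM in KO against 8.80, 9.27 and 8.13 FPKM in WT. No KO library reached the lowest WT library. The change was -0.58 ± 0.12 (adjusted p = 0.145, limma), in the direction opposite to that of the cytosolic pathway enzymes, and at 8 months it was -0.14. Averaged over both ages the difference was 0.17 ± 0.10 for Mthfd2 and -0.21 ± 0.15 for Aldh1l2, neither with an unadjusted p under 0.05.

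Nadk, the cytosolic kinase that makes NADP from NAD, had 57.4, 53.9 and 41.9 FPKM in KO against 34.0, 37.3 and 37.2 FPKM in WT at 5 months. Its KO libraries stood in nearly the same order as for G6pdx, with F19 lowest and above all WT libraries. The change was 0.48 ± 0.14 (adjusted p = 0.177, limma), while Nadk2, the mitochondrial kinase, was at -0.07 ± 0.11.

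Among 15 NADPH-using enzymes 0 were called. At 5 months 3 had an unadjusted p under 0.05 with a higher level in KO (8.25% of all genes did). Such a p with a lower level was seen for 1 (9.93% of all genes). The smallest p averaged over both ages belonged to Cybb, Blvrb and Dhcr7. Cybb, the catalytic subunit of the phagocyte NADPH oxidase, had 57.1, 13.4 and 21.8 FPKM in KO against 6.05, 7.08 and 5.90 FPKM in WT at 5 months, with E7 far above the rest (1.94 ± 0.69, adjusted p = 0.216, limma). Blvrb, biliverdin reductase B, was at 0.72 ± 0.26 (adjusted p = 0.220) and Dhcr7, of cholesterol synthesis, at -0.23 ± 0.11 (adjusted p = 0.302, both limma).

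Among 14 glycolysis genes tested of 15 listed, 0 were called. At 5 months 3 had an unadjusted p under 0.05, all with a higher level in KO (8.25% of all genes had one). Hk3, the hexokinase of myeloid cells, had 25.0, 5.15 and 8.55 FPKM in KO against 1.87, 1.86 and 1.58 FPKM in WT, again with E7 on top (2.27 ± 0.77). Gpi1, the isomerase that shares glucose 6-phosphate with G6pdx, was at 0.22 ± 0.09 and Pfkp, a phosphofructokinase, at -0.16 ± 0.09. The median change of the glycolysis list was 0.10, that of the NADPH-using list 0.17 and that of the other NADPH-producing list -0.00, each beside -0.03 for all genes.

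The genes most like G6pdx, Pgd and Pgls across the libraries were sought among the 11305 genes that averaged 5 FPKM or more, by the root mean square difference of log2(FPKM + 0.5) after each gene was centred on its own mean over the 12 libraries. For G6pdx these were Creg1, a secreted lysosomal glycoprotein (0.0929), Nadk (0.105) and Pabpc4, a cytoplasmic polyA-binding protein (0.110), where G6pdx itself had an SD of 0.257 over the libraries. For Pgd the nearest of all 11305 was G6pdx (0.117), before Sla2 (0.128) and Rbfa (0.132). For Pgls they were Rbfa (0.121), Dctpp1, a pyrophosphatase that cleans up the nucleotide pool (0.125), and 1110008F13Rik (0.126). Among the members themselves Pgd was the nearest to G6pdx, Pgls and Taldo1, Taldo1 the nearest to Tkt (0.187), and Me1 was the furthest from any other, with Idh1 nearest at 0.310.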

How the data were processed

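RNA-seq of 12 cochlear libraries was analysed. Libraries were stranded and polyA-selected. The authors checked single reads of 50 bases with FastQC 0.10.1, aligned them with TopHat2 2.0.10, which called Bowtie 1.0.0 and SAMtools 0.1.19, to mm9, and deposited FPKM per gene and library from Cufflinks 2.2.1. Many deposited FPKM had lost their decimal point. It was restored per gene and group as the only placing that gave the mean listed for that group by Cuffdiff (relative tolerance 2e-05). This left 23921 of 23951 genes and changed 55.4% of values. Depth is unknown. The Cuffdiff tests, enrichment reports and sample correlations were not used. The authors' group codes DN and DP were read as KO and WT from their names, and 50 of 95804 gene and group pairs then had no single placing.

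The 16263 genes that averaged 0.5 FPKM or more entered 1 limma 3.58.1 fit (R 4.3.3) of 4 groups on log2(FPKM + 0.5) with a variance trend and Benjamini-Hochberg adjustment at 0.05. A fold change on this scale understates the change of low genes. Single members also had exact permutation tests (Python 3.11.15, NumPy 2.4.6, Matplotlib 3.10.9). All 10 members were named, and of each other pathway list the 3 genes with the smallest p averaged over ages. Scripts were tested on simulated data. The members and lists were chosen with earlier results of these data known. Alternatives were other pseudocounts, filters, scalings, weights, covariates, the compared groups alone and libraries left out, and 3 were added after the data were seen.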

Additional observations from a re-analysis of the deposited data

How the results depend on the processing

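No member passed an adjusted p of 0.05 by limma under any alternative run, in any comparison, and the smallest adjusted p was 0.0762 at 5 months, 0.681 at 8 months, 0.0731 averaged over both ages, 0.313 for the difference between ages, 0.164 for age in KO and 0.298 for age in WT. At 5 months 274 of 280 member values kept their direction. The number of all genes called at 5 months was 11, and it was 7 without the filter or with the Xist level, 18 with median ratio scaling (7 higher, 11 lower, beside 4 higher and 7 lower), 5 without the variance trend, 17 with array weights, 4 with the 2 groups alone or the adipocyte level, 3 with the neutrophil level or both levels, 23 without E7, F5 and F18, and 4 to 16 with 1 library left out. At 8 months it was 2, against 4 with the 2 groups alone, 5 without E7 and F5 (F18 kept or not) and 2 to 6 with 1 library left out. Averaged over both ages it was 13, against 22 with array weights, 20 with the code letter, 3 with the neutrophil level or both levels, 5 without E7 and F5, 25 without E7, F5 and F18, and 3 to 22 with 1 library left out. With quantile normalization 6 were higher and 10 lower there, beside 7 and 6. For the difference between ages it was 1, against 2 with a pseudocount of 0.1, 9 with the code letter, 4 without E7 and F5, 21 without E7, F5 and F18, 0 to 4 with 1 library left out, and 0 with a pseudocount of 1, no filter, no trend, the Xist level, the neutrophil level, the adipocyte level or both levels. For age in KO it was 0, against 1 without the filter or with the 2 groups alone, 4 without E7 and F5, 18 without E7, F5 and F18, and 0 to 3 with 1 library left out. For age in WT it was 2, against 4 with the 2 groups alone or without E7, F5 and F18, 9 with the code letter, and 1 to 5 with 1 library left out.

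Members that turned round mostly lay near 0. At 5 months Me1 was -0.43 with the code letter, where the comparison rests on E7 alone. Rpe was -0.011 with both marker levels, and without E7, F5 and F18 Rpe was -0.035, Idh1 -0.068 and Me1 -0.025. At 8 months Tkt was -0.031 with quantile normalization, -0.059 with array weights and -0.017 with the Xist level, where H6pd was 0.021. Without F5 alone Pgls was -0.020, Taldo1 -0.012, Tkt -0.057, Rpia -0.066 and Idh1 -0.047. Leaving out E7 and F5, whether or not F18 was kept, gave the same values. Averaged over both ages Me1 was -0.017 with quantile normalization, -0.089 with array weights, -0.35 with the code letter, -0.11 with the adipocyte level and -0.10 without E7, F5 and F18, where Rpe was -0.059 and Idh1 -0.057. Rpe was -0.024 with the neutrophil level and -0.036 with both levels. For the difference between ages Me1 was 0.16 with the code letter, Rpia 0.020 with both levels and Idh1 0.021 without E7, F5 and F18. For age in KO array weights gave 0.044 for Idh1 and 0.033 for Me1, and without E7, F5 and F18 Taldo1 was 0.12, Tkt 0.26, Idh1 0.20 and Me1 0.17. For age in WT the code letter gave -0.085 for H6pd and -0.77 for Me1, the neutrophil level -0.083 for Rpia and -0.0082 for Rpe, the adipocyte level -0.045 for Rpe, -0.011 for H6pd and -0.046 for Idh1, and both levels -0.13 for Rpia, -0.071 for Rpe, -0.046 for H6pd and -0.035 for Idh1. The cause was not tested.

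With 1 library left out, 8-month values ran over -0.020 to 0.29 for Pgls, -0.012 to 0.30 for Taldo1, -0.23 to 0.17 for Tkt, -0.066 to 0.26 for Rpia, -0.14 to 0.021 for Rpe, -0.13 to 0.076 for H6pd and -0.15 to 0.20 for Idh1. At 5 months they ran over -0.23 to 0.66 for Me1, and averaged over both ages over -0.25 to 0.19 for Me1 and -0.012 to 0.072 for Rpe. For age in KO the ranges were -0.27 to 0.043 for Pgls, -0.46 to 0.034 for Taldo1, -0.67 to 0.093 for Tkt, -0.25 to 0.14 for Idh1 and -0.61 to 0.28 for Me1, and for age in WT -0.039 to 0.12 for Rpe. No paired analysis was possible because the library codes are not shared between groups. Covariates of adipocyte level, alone and with the neutrophil level, and the fit without E7, F5 and F18 were chosen after the data were seen. Read depth is unknown, so counting error could not be separated from the spread between libraries.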
